A study of Mus musculus with 12 samples.

Results

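Counts assigned to 6 symbols of zinc handling were described across 4 groups of mouse bone marrow-derived macrophages. The symbols were 1700034H15Rik, Slc30a1, Slc39a14, Mt1, Mt2 and Mtf1, taken by name from the 24552 symbols of the count table. They were chosen by a rule that names their counts in the 4 groups, the M1 change and the ISRIB effect in M0 and M1, with earlier results of these data in view. Their values in all of these comparisons are therefore a description. Adjusted p-values, which come from a fit over all 2356 tested genes, place the values among the other genes and are no independent support. To obtain such cells, marrow progenitors are cultured with M-CSF, which drives them to become macrophages, here at 10 ng/ml for 6 days. The vehicle groups received DMSO and the ISRIB groups 50 nM ISRIB, a small molecule that blocks the integrated stress response by acting on the translation factor eIF2B, with 1 h of pre-treatment. M1 cells received LPS (10 ng/ml) and IFN-γ (25 ng/ml) over 16 h, with vehicle or ISRIB still present, and the labels do not say what M0 cells received in that time. Vehicle M0, ISRIB M0, vehicle M1 and ISRIB M1 each had 3 biological replicates, so that there were 12 samples. The strain, age and sex of the donor mice, and whether replicates came from separate animals, are not given in the sources used here, so p-values measure the spread between these samples.

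Cells keep free zinc low by moving it across membranes and by binding it. Members of the SLC30 (ZnT) family carry zinc out of the cytosol, members of the SLC39 (ZIP) family carry it in, and metallothioneins are small cysteine-rich proteins that bind it. The transcription factor MTF1 senses zinc and binds metal response elements in the promoters of metallothionein genes and of Slc30a1. In activated macrophages this system is known for shifting zinc away from engulfed microbes.

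The 6 symbols differ in where they lie and in what lies opposite them (GRCm38, the assembly also called mm10, GENCODE M21). Slc30a1, the zinc exporter of the plasma membrane, is at chr1:191906767-191913247 on the plus strand. 1700034H15Rik is annotated as an antisense transcript at chr1:191886130-191907527 on the minus strand. The shared exonic stretch of these genes is chr1:191907060-191907527, which is 468 bases inside exon 1 of Slc30a1 and all of it protein-coding sequence there. It makes up 7.67% of the exon bases of 1700034H15Rik and 8.92% of those of Slc30a1, so most exon bases of either gene are not shared. Mtf1 is at chr4:124802104-124849800 on the plus strand, and its last 721 exon bases, outside its coding sequence, overlap 1110065P20Rik. That neighbour had 0 counts in all 12 libraries. Mt1 (chr8:94179082-94180327) and Mt2 (chr8:94172664-94173568) are on the plus strand, and Slc39a14 (chr14:70303469-70351425) is on the minus strand. Slc39a14 and Mt1 have no annotated exon overlap on the opposite strand, and Mt2 overlaps an antisense transcript, Gm45774, that the count table does not list.

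**Figure D1:**
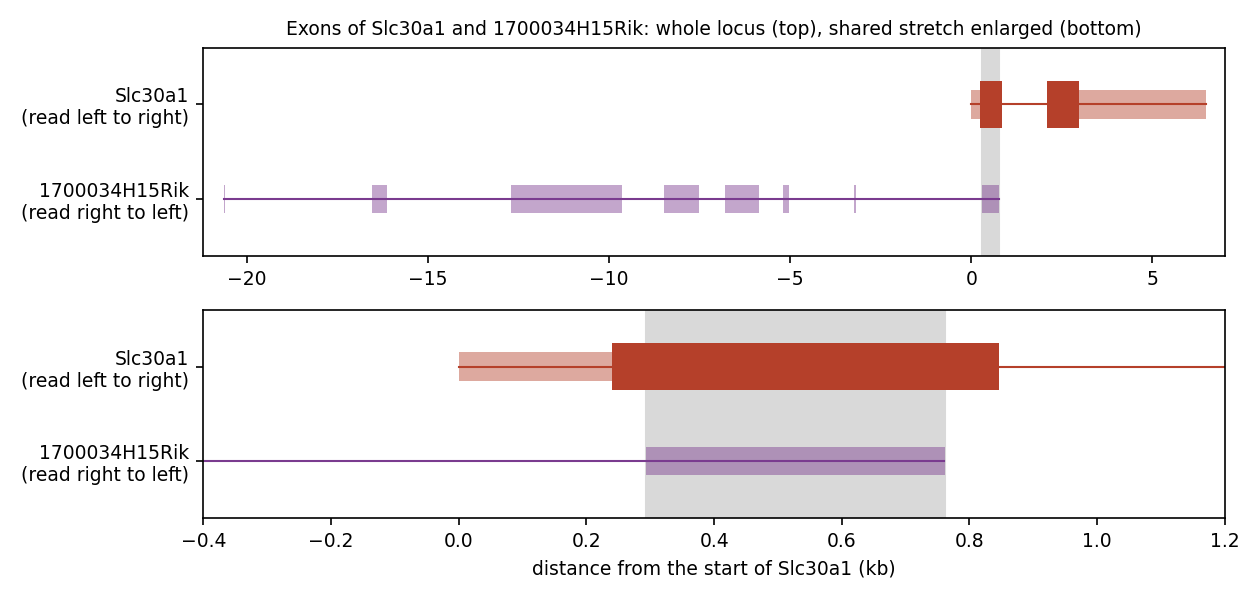
Exons of Slc30a1 and 1700034H15Rik drawn to scale against distance from the start of Slc30a1 in kilobases, with coding sequence as the taller, darker boxes. The grey band marks the 468 shared bases, which lie in the coding part of the first Slc30a1 exon while the rest of 1700034H15Rik runs away from Slc30a1 on the opposite strand.

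The start regions of the pair and of a metallothionein gene are shown because the antisense start lies inside the first exon of Slc30a1 (RefSeq, GRCm38.p6). The windows shown for the pair do not share bases. In the first sequence, from chr1:191907478-191907777 on the minus strand, capitals mark the 136 bases that lie inside Slc30a1 exon 1. In the others, from chr1:191906531-191906810 and chr8:94178839-94179118 on the plus strand, capitals mark matches to the core of the metal response element, TGCACNC or TGCGCNC on either strand.
1700034H15Rik start: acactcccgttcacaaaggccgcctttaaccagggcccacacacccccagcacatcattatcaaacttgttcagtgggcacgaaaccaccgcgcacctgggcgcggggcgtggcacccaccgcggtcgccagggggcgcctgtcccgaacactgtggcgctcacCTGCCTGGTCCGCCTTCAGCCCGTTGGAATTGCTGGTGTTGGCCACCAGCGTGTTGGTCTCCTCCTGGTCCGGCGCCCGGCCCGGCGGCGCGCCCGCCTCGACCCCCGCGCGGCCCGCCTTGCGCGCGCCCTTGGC
Slc30a1 promoter: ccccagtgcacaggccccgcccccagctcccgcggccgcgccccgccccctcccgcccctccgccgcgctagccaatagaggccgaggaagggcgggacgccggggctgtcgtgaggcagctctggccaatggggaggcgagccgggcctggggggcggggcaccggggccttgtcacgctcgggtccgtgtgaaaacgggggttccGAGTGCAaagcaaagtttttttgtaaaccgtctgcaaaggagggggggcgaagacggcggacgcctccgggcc
Mt1 promoter: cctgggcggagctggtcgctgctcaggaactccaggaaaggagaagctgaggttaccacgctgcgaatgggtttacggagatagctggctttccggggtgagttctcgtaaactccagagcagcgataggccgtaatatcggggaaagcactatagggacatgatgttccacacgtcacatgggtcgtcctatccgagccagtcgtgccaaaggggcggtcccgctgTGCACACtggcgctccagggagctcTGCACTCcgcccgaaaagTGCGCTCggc
Each promoter was searched from 250 bases before to 30 bases after the RefSeq start, 280 bases in all. In these windows the core occurred once for Slc30a1 (GAGTGCA, read on the opposite strand), 3 times for Mt1, 4 times for Mt2 and 0 times for Mtf1 and 1700034H15Rik. The 1700034H15Rik sequence shown is longer, at 300 bases. Past the last base searched it holds TGCGCGC, which fits the core and was not counted. Among all 32851 promoter windows of this length, 24.1% held at least 1 match, 1.73% held 3 or more and 0.405% held 4 or more. A match is a run of letters, not evidence of binding.

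Total counts per library ranged from 439976 to 514037, and a count of 3 was 0.000584% to 0.000682% of a library. The libraries were strand-specific, but the strand setting of the counting is not given in the sources used here. The 5775 matched symbols with an exon overlapping an exon on the opposite strand were 24.1% of the 23986 matched symbols and held 91.2% to 93.1% of the counts of a library. Reads from a gene and from its antisense partner therefore cannot be told apart with certainty, and every value below is a count assigned to a symbol. Among counts from 1 to 10, 66.3% were even, against 49.3% of the counts above 100 and up to 1000, and the reason was not tested. Macrophage markers were present, with 11 of 11 detected, and their summed level was 3509 to 3585 CPM in vehicle M0, 3837 to 5111 in ISRIB M0, 306 to 654 in vehicle M1 and 464 to 615 in ISRIB M1. That sum was carried in M0 by Cd163, with 1488 to 1501 counts in vehicle M0 and 1 to 8 in vehicle M1, and the other markers did not move one way. Of the 8 tested markers, 4 (Adgre1, Itgam, Fcgr1 and Cd14) were called higher in vehicle M1 than in vehicle M0 and 3 (Csf1r, Lyz2 and Cd163) lower by edgeR, and under ISRIB 3 were called higher and 2 lower. The 5 fibroblast markers were at 0 in all libraries, and neutrophil markers summed to at most 4 counts in any library, with Ly6g, Elane, Mpo and Ltf at 0. Among dendritic cell markers Flt3 and Zbtb46 were at 0, while Xcr1 had 6 to 19 counts in M0 libraries and 325 to 434 in M1 libraries. The part of these marker levels in the results below was not tested.

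Of the 6 members, 1700034H15Rik and Mtf1 had enough counts to be tested. Slc30a1, Mt1 and Mt2 had a few counts each, and Slc39a14 had none. All adjusted p-values below are from the quasi-likelihood test of edgeR, adjusted by Benjamini-Hochberg over the 2356 tested genes unless another tool is named.

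1700034H15Rik, an antisense RNA with no known role that can be stated here, was lowest in vehicle M0 and highest in vehicle M1. It had 175, 231 and 155 counts in the vehicle M0 libraries (replicates 1, 2 and 3) and 271, 270 and 282 in ISRIB M0. With M1 stimulation the counts were 388, 306 and 418 for vehicle and 297, 411 and 294 for ISRIB. Every M1 library was above every M0 library, and the ISRIB M0 libraries lay above those of vehicle M0. Scaled to library size with TMM (CPM), the levels were 350.6 ± 54.6 CPM (SD, n = 3) in vehicle M0 and 527.7 ± 36.2 in ISRIB M0. They were 921.0 ± 117.6 CPM in vehicle M1 and 784.5 ± 122.6 in ISRIB M1. In order of level, vehicle M0, ISRIB M0 and the M1 groups did not overlap, whereas ISRIB M1 and vehicle M1 overlapped. In such bulk samples fewer cells of a type and less RNA per cell cannot be told apart.

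**Figure D2:**
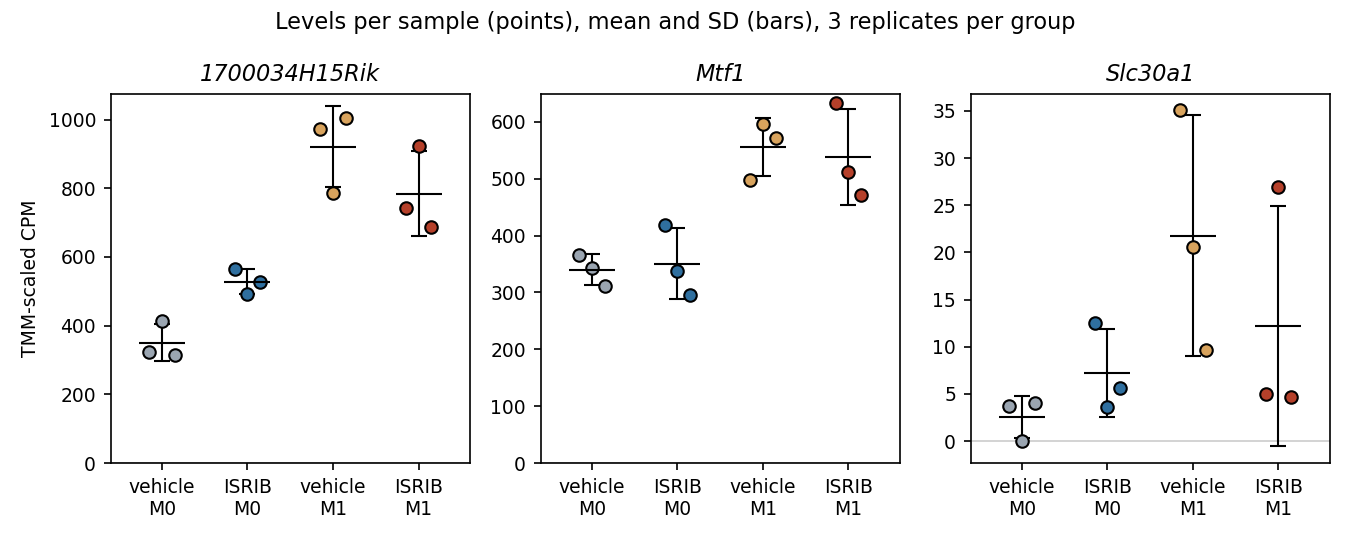
TMM-scaled CPM of 1700034H15Rik, Mtf1 and Slc30a1 in each of the 4 groups, with a point per sample and bars for the mean and SD of 3 replicates; each panel has its own linear axis. 1700034H15Rik lies at 314 to 413 CPM in vehicle M0, 491 to 564 in ISRIB M0 and 688 to 1005 in M1, Mtf1 separates M0 from M1 only, and Slc30a1 lies at a much smaller level with wide spread.

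With polarization in vehicle cells 1700034H15Rik was 2.62-fold higher in M1, or 1.39 ± 0.16 (SE) as log2 fold change (edgeR, adjusted p = 6.23e-08). Both tested members were called higher in that comparison. There 44.8% of all tested genes were called, 24.3% higher and 20.5% lower, so a call is common. The vehicle M0 and vehicle M1 samples did not overlap for 52.7% of tested genes, with M1 higher for 27.7% and lower for 25.0%. Under ISRIB the symbol was 1.49-fold higher in M1, 0.57 ± 0.16 on the log2 scale (edgeR, adjusted p = 0.00385). Both tested members were again called higher, where 44.8% of tested genes were called, 23.9% higher and 20.9% lower. The ISRIB M0 and ISRIB M1 samples did not overlap for 55.2% of tested genes, with M1 higher for 28.8% and lower for 26.4%. On the deposited log2 values, tested with limma, the 2 increases were 1.46 ± 0.16 and 0.63 ± 0.16.

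ISRIB samples had more 1700034H15Rik than vehicle samples in M0 cells. The 3 ISRIB M0 samples, at 564, 491 and 528 CPM, were all above the 3 vehicle M0 samples, at 324, 413 and 314 CPM. Groups were separate in this comparison for 11.3% of all tested genes, with ISRIB higher for 5.56% and lower for 5.73%. The difference was 0.59 ± 0.16 (SE) on the log2 scale and did not pass (edgeR, adjusted p = 0.294). In M1 cells the difference had the other sign. The 3 ISRIB M1 samples were at 742, 923 and 688 CPM and the vehicle M1 samples at 972, 787 and 1005 CPM, so the groups overlapped. The log2 fold change there was -0.23 ± 0.15 (edgeR, adjusted p = 0.926). In M1 cells 11.6% of tested genes had separate ISRIB and vehicle groups, 5.39% with ISRIB higher and 6.20% with ISRIB lower. The ISRIB effect in M1 minus that in M0 was -0.82 ± 0.22 on the log2 scale (edgeR, adjusted p = 0.211), so a difference between the 2 states did not pass. The comparisons share samples, since vehicle M0 enters both the M1 change and the ISRIB effect in M0. Of all tested genes 0.00% were called in each of the 3 ISRIB comparisons by edgeR. Of the 2356 tested genes, 134 had an unadjusted edgeR p under 0.05 for ISRIB in M1 and 143 for ISRIB in M0. For the difference of these effects there were 167. With no effect at all, a share of 0.05 of the tested genes is expected under that cut. The DESeq2 Wald test called 0, 3 and 0 genes in the same order, and limma on the deposited log2 values called 0 in each. On simulated data for ISRIB in M1, edgeR recovered 32% of 2-fold and 70% of 4-fold changes over genes of all count levels. Those data held 100 changed genes at each fold and the real comparison called 0, so recovery there can differ. No share was computed at the count level of 1700034H15Rik.

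**Figure D3:**
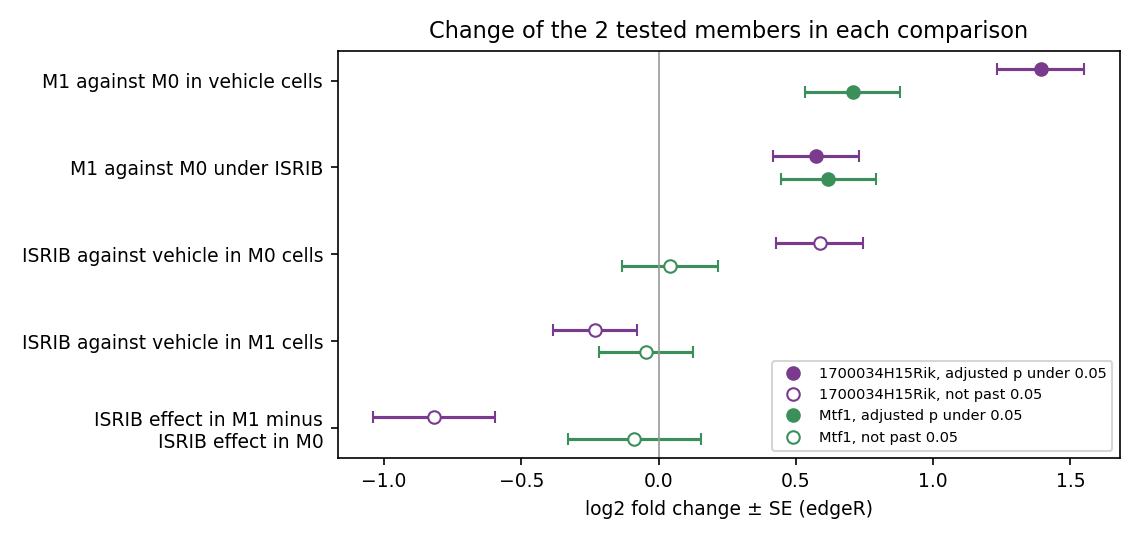
Log2 fold changes with their standard errors (horizontal axis) for 1700034H15Rik and Mtf1 in the 5 comparisons (vertical axis); filled points passed an adjusted p of 0.05 over all tested genes and open points did not. Both symbols pass in the M1 comparisons only, at 1.39 and 0.57 for 1700034H15Rik and 0.71 and 0.62 for Mtf1, and the ISRIB points of Mtf1 sit near 0.

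Slc30a1, on the other strand, had far fewer counts than its antisense partner. It had 2, 0 and 2 counts in vehicle M0, 6, 2 and 3 in ISRIB M0, and 14, 8 and 4 in vehicle M1. ISRIB M1 libraries had 2, 12 and 2. All 3 vehicle M1 libraries were above all 3 vehicle M0 libraries, and the ISRIB groups overlapped each other. By CPM the former held for 27.7% of all tested genes, a set that does not include Slc30a1. No such share was computed for symbols with as few counts. Per kilobase of exon, Slc30a1 was at 0.493 ± 0.428 CPM (SD, n = 3) in vehicle M0 and 4.15 ± 2.43 in vehicle M1, where 1700034H15Rik was at 57.5 ± 8.96 and 151.0 ± 19.3 CPM per kilobase. These values divide by all exon bases of each symbol, and where the reads lay along them was not tested. Slc30a1 was below the filter on low counts. When all 10978 symbols with a count were tested, its log2 fold change between vehicle M1 and vehicle M0 was 2.88 ± 1.22 (edgeR, adjusted p = 0.150). The corresponding ISRIB effects were 1.40 ± 1.24 in M0 and -0.79 ± 1.09 in M1 (edgeR, adjusted p = 0.837 and 0.967). At these counts a change of Slc30a1 was not resolved, and the share of either symbol's counts that came from the 468 shared bases was not tested.

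Mtf1, the symbol of the zinc-sensing transcription factor, was well counted, and the scaled counts assigned to it were higher in M1 cells. Its last 721 exon bases overlap a neighbour on the opposite strand, and which strand the counts came from was not tested. Mtf1 had 197, 192 and 154 counts in vehicle M0 and 201, 186 and 158 in ISRIB M0. The M1 libraries had 199, 232 and 238 with vehicle and 253, 228 and 201 with ISRIB. The raw counts of M0 and M1 overlap narrowly, and the scaled levels do not. These were 340.2 ± 26.6 CPM (SD, n = 3) in vehicle M0 and 350.8 ± 62.0 in ISRIB M0, against 555.6 ± 51.0 in vehicle M1 and 538.3 ± 84.1 in ISRIB M1. The increase in M1 was 1.63-fold in vehicle cells (log2 fold change 0.71 ± 0.17, SE) and 1.54-fold under ISRIB (0.62 ± 0.17) (edgeR, adjusted p = 0.00154 and 0.00469).

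ISRIB left no resolved difference in Mtf1. Its log2 fold change was 0.04 ± 0.17 in M0 and -0.05 ± 0.17 in M1 (edgeR, adjusted p = 1 and 0.993). The samples of the ISRIB and vehicle groups overlapped in both states. The difference of the ISRIB effects was -0.09 ± 0.24 (SE) on the log2 scale (edgeR, adjusted p = 0.974).

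The metallothioneins, which bind zinc and copper, and the zinc importer Slc39a14 (ZIP14), which also carries iron and manganese, were close to absent from the counts. Mt1 had 4 counts in replicate 2 of ISRIB M0, 2 counts in replicate 3 of ISRIB M1 and 0 in the other 10 libraries. Mt2 had 2 counts in replicate 2 of vehicle M1, 2 in replicate 2 of ISRIB M1 and 0 in the others. Slc39a14 had 0 counts in all 12 libraries, which allows a share of up to 0.000682% of the counts in the shallowest library, for counting error only. No group of Mt1, Mt2 or Slc39a14 was thus separated from another. Mt3 and Mt4 had 0 counts in every library.

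The rest of the zinc transport family gave the same picture of low counts. Of a list of 29 SLC30, SLC39 and metallothionein symbols with Mtf1, 20 had a count in any library, 25 had at most 10 counts in every library, and 3 (Mtf1, Slc30a7 and Slc39a5) were tested. In vehicle M1 against vehicle M0, 1 of these 3 was called higher and 0 lower, where 24.3% and 20.5% of all tested genes were, with a median log2 fold change of -0.30 against 0.01 over all tested genes. Under ISRIB the same counts were 1 and 0 of 3, against 23.9% and 20.9% of all tested genes, with a median of -1.44 against -0.01 over all tested genes. With 3 genes, 1 call is near the share over all genes. In each of the 3 ISRIB comparisons 0 of 3 were called, as were 0.00% of all tested genes. Of the 29, 5 have an opposite-strand neighbour among the counted symbols, Slc30a1, Slc30a10, Slc39a9, Slc39a13 and Mtf1. Neighbours other than 1700034H15Rik were themselves low, with at most 12 counts for Erh opposite Slc39a9, at most 6 for Psmc3 opposite Slc39a13, and 0 for Gm2061 opposite Slc30a10.

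Slc39a5 (ZIP5), a zinc importer best known from gut and pancreas, had 10, 11 and 34 counts in vehicle M0 and 23, 33 and 22 in ISRIB M0. The M1 counts were 10, 16 and 4 with vehicle and 8, 8 and 7 with ISRIB. The ISRIB M1 libraries were all below the ISRIB M0 libraries, at 18.1 ± 1.81 against 49.7 ± 9.55 CPM (SD, n = 3). The same held for 26.4% of all tested genes, and the vehicle groups of Slc39a5 overlapped. The log2 fold change under ISRIB was -1.44 ± 0.63 (SE) (edgeR, adjusted p = 0.0637), which became 0.0397 when only those 2 groups entered the fit. In vehicle cells it was -0.49 ± 0.62 (edgeR, adjusted p = 0.546), and without replicate 3 of vehicle M0, the library with 34 counts, it was 0.41.

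Slc30a7 (ZnT7), which loads zinc into the Golgi, had 11, 15 and 10 counts in vehicle M0 and 4, 19 and 5 in ISRIB M0. The M1 counts were 6, 7 and 9 with vehicle and 0, 1 and 5 with ISRIB. The ISRIB M1 libraries were thus all below those of vehicle M1, as for 6.20% of all tested genes by CPM. They overlapped those of ISRIB M0 at 5 counts. The log2 fold change was -0.30 ± 0.86 (SE) with polarization in vehicle cells and -1.84 ± 0.99 under ISRIB (edgeR, adjusted p = 0.798 and 0.135). The value under ISRIB moved with single libraries. It was -3.63 without replicate 3 of ISRIB M1, the library with 5 counts (edgeR, adjusted p = 0.0320), and -0.87 without replicate 2 of ISRIB M0, the library with 19 counts (edgeR, adjusted p = 0.588). The ISRIB effects on Slc30a7 were -0.36 ± 0.85 in M0 and -1.90 ± 1.00 in M1, and neither passed (edgeR, adjusted p = 1 and 0.844). Leaving out 1 sample at a time moved these effects between -1.31 and -0.024 in M0 and between -3.69 and -1.36 in M1. Exons of Slc30a7 overlap 2 pseudogenes on the opposite strand, Gm6649 over 1165 bases and Gm43106 over 637. Neither is among the counted symbols.

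**Figure D4:**
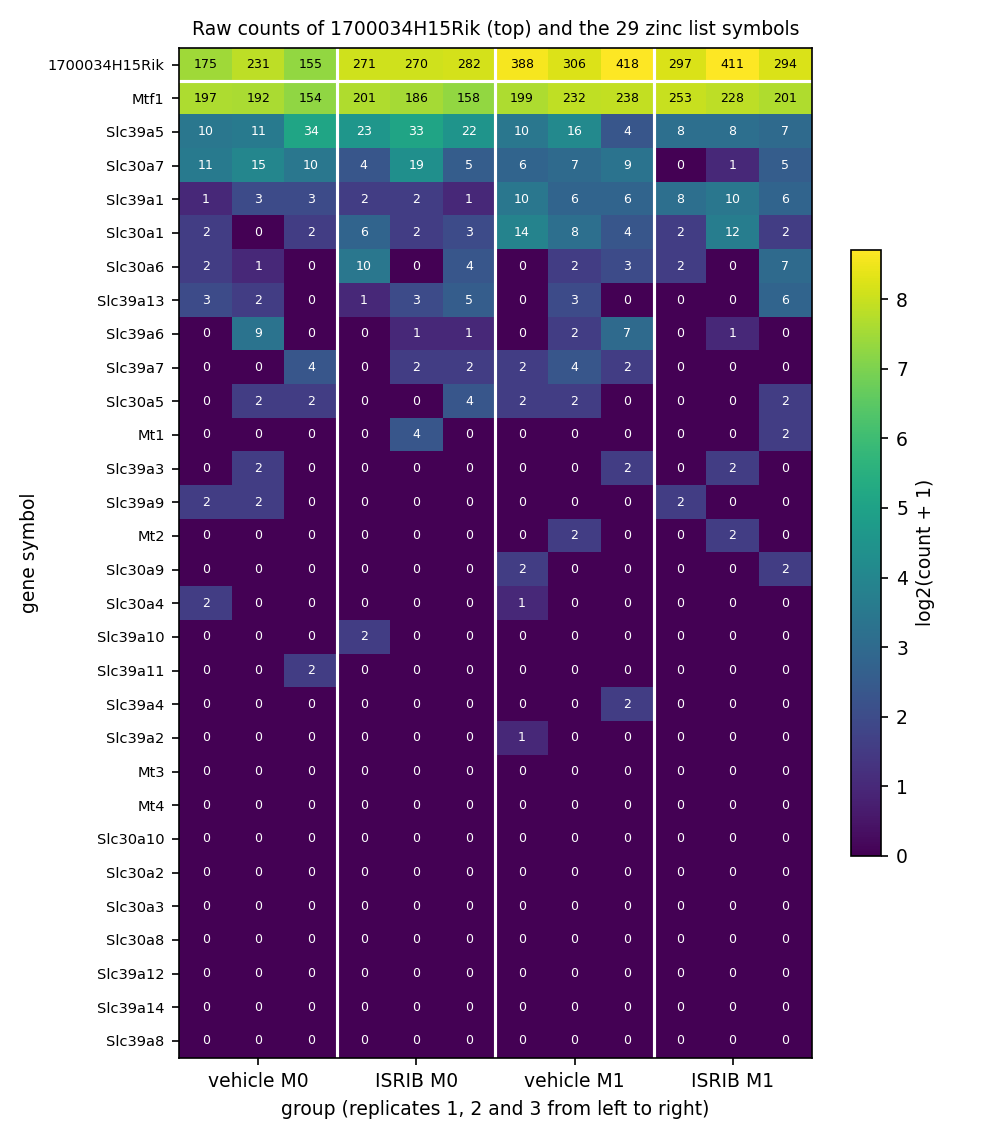
Raw counts of 1700034H15Rik (top row) and the 29 zinc list symbols (rows, by total count) in the 12 libraries (columns, 3 replicates per group), with the count printed in each cell and the colour giving log2(count + 1). 1700034H15Rik and Mtf1 carry 154 to 418 counts in every library, and every other symbol has at most 34.

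Genes for other metals were set beside the zinc genes as a comparison. Of 18 symbols for iron, copper and related transport, 7 were tested, and 3 were called higher and 2 lower in vehicle M1 against vehicle M0. Over all tested genes 44.8% were called in that comparison, 24.3% higher and 20.5% lower. The list's median log2 fold change was 0.31, against 0.01 over all tested genes. Fth1, the heavy chain of the iron store ferritin, had 47, 68 and 35 counts in vehicle M0 and 367, 246 and 456 in vehicle M1, a log2 fold change of 3.23 ± 0.27 (SE) (edgeR, adjusted p = 1.77e-10). Hmox1, which releases iron from haem, went from 0, 5 and 2 counts to 32, 16 and 50. Slc31a2, a copper transporter of internal membranes, went from 81, 156 and 150 counts to 9, 18 and 9.

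The other called genes of that list had few counts. Slc40a1 (ferroportin), the iron exporter, had 15, 12 and 12 counts in vehicle M0 and 0 in all vehicle M1 libraries, which is at least 3.28-fold lower against a floor of 3 counts per library. Slc11a1 (NRAMP1), a metal transporter of the phagosome, had 0, 2 and 0 counts in vehicle M0 and 10, 2 and 25 in vehicle M1. The adjusted p of edgeR was 0.0110, and 0.0854 without replicate 3 of vehicle M1. Under ISRIB, 2 of the 7 were called higher (Fth1 and Hmox1) and 1 lower (Slc31a2), where 44.8% of all tested genes were called, 23.9% higher and 20.9% lower. The list's median log2 fold change there was 0.69, against -0.01 over all tested genes. In each of the 3 ISRIB comparisons 0 of 7 were called by edgeR.

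**Figure D5:**
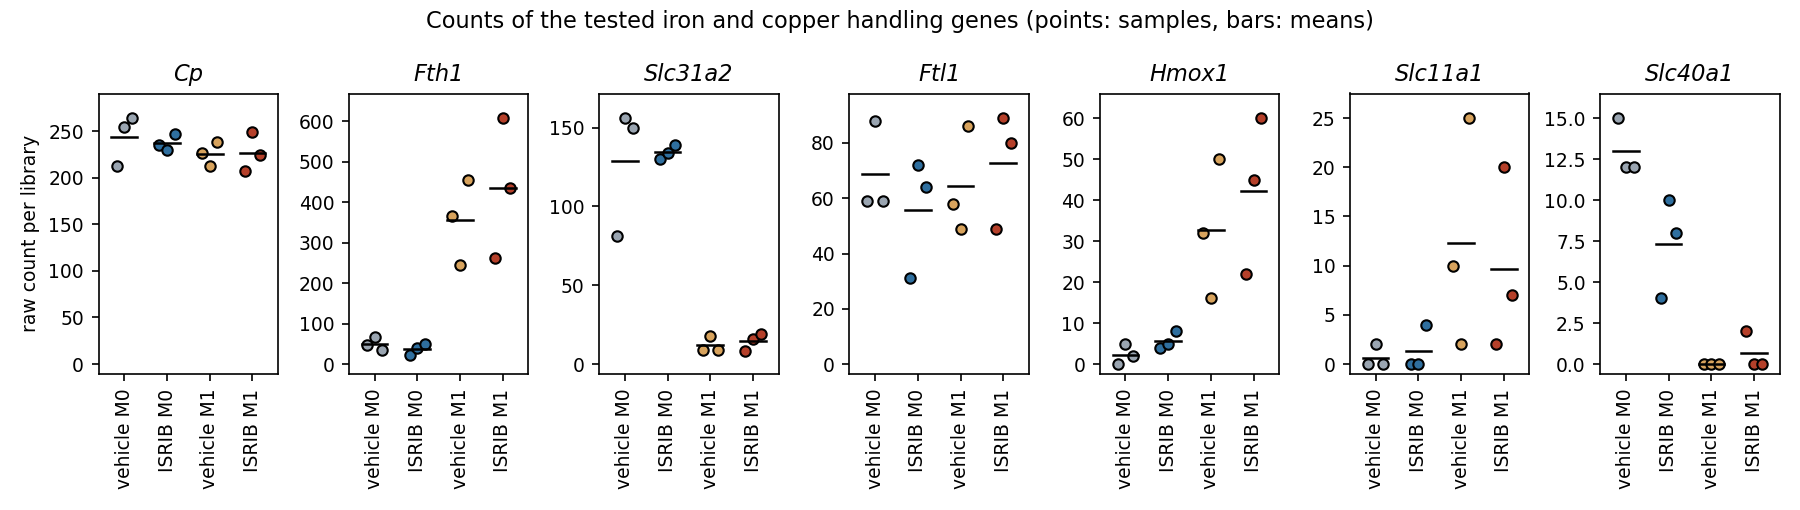
Raw counts per library (vertical axis, a separate linear scale for each gene) of the 7 tested iron and copper handling genes in the 4 groups, with a point per sample and a bar at the mean. Fth1 and Hmox1 are higher in every M1 library, Slc11a1 is higher in most, Slc31a2 and Slc40a1 are lower, and Cp and Ftl1 overlap across all groups.

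Among the other 2355 tested genes, those whose pattern over the 12 samples was most like that of 1700034H15Rik were Keap1, Nisch, Trim43c, Ccnd1 and Fundc1. Their Pearson r on log2 CPM ran from 0.937 to 0.946, and Mtf1 ranked 299 with 0.814. The points share the split between M0 and M1, so no p is given. Keap1, Nisch and Fundc1 had 0 counts in vehicle M0. Ccnd1, cyclin D1, had levels of 205.7 ± 40.6 CPM (SD, n = 3) in vehicle M0, 290.1 ± 44.9 in ISRIB M0, 420.7 ± 9.52 in vehicle M1 and 425.6 ± 38.4 in ISRIB M1. The patterns most unlike it were those of Rell2, BC049352 and Slc40a1, with r between -0.955 and -0.936. Slc40a1 was at 24.5 ± 3.17 CPM in vehicle M0, 13.8 ± 5.04 in ISRIB M0, 0 in vehicle M1 and 1.67 ± 2.89 in ISRIB M1. Some of these genes also overlap exons on the opposite strand. The overlap was 10.9% of the exon bases of Keap1 (with Gm16754) and 38.6% of Trim43c (with 9330159M07Rik). It was 23.4% of Ccnd1 (with LTO1) and 44.4% of Rell2 (with Fchsd1). Which strand their counts came from was not tested.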

How the data were processed

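The authors deposited whole-number counts per gene symbol, and a table in which each log2 value equals the log2 of the count divided by 1 factor per library, plus 1, as the values of both deposited tables show. The build mm10 and the tools FastQC, HTSeq and DESeq2 are named in the submitters' processing notes without their roles. The aligner, the annotation and the strand setting of the counting are not given in the sources used here. Libraries were strand-specific TruSeq mRNA libraries, per the labels' protocols.

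The deposited counts went into edgeR 4.0.16 (R 4.3.3). The filter was filterByExpr (minimum count 10, minimum total 15), which left 2356 genes with 97.6% of the counts. Libraries were scaled by TMM, CPM refer to the kept genes, and 1 mean per group was fitted to all 12 samples. The 5 comparisons used the two-sided quasi-likelihood test, with Benjamini-Hochberg adjustment over the 2356 genes and a threshold of 0.05. Standard errors are implied by the test statistic. Log2 CPM for likeness used a prior count of 2. Simulated data for the vehicle polarization comparison had 2356 genes, with 100 changed at each fold. There 34% of 2-fold and 70% of 4-fold changes were recovered. The real comparison called 1055 genes, so recovery there can differ. For ISRIB in M1, the simulated shares were 32% and 70%, also with 100 changed genes at each fold. The real comparison called 0 genes, so recovery can differ there too. Alternatives used DESeq2 1.42.0 and limma 3.58.1. Members and lists were chosen with earlier results of these data known. Named genes were the members, tested zinc list genes, called genes of the other metal list, opposite-strand neighbours, and the 5 tested genes most like and 3 most unlike 1700034H15Rik.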

Additional observations from a re-analysis of the deposited data

How the results depend on the processing

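1700034H15Rik and Mtf1 kept their direction and stayed past the threshold in both M1 comparisons under all 19 alternatives. In vehicle cells the log2 fold change of 1700034H15Rik ran from 1.30 to 1.56 and that of Mtf1 from 0.62 to 0.78, and under ISRIB from 0.44 to 0.66 and from 0.49 to 0.77. The ISRIB effect on 1700034H15Rik in M0 ran from 0.52 to 0.74 and that in M1 from -0.36 to -0.15, and their difference over 18 alternatives from -0.97 to -0.73. None of these passed, with adjusted p-values of at least 0.143, 0.709 and 0.111. With the replicate number as a block the number of genes called for the difference of ISRIB effects was 3 in place of 0. The block changed no call of a member or named zinc or metal gene. Deviations of same-numbered samples correlated at -0.0600 to 0.113 over the 4 comparisons. With 3 samples per group and many genes at low counts, these values cannot decide whether same-numbered samples were paired. Library names run consecutively within a replicate number, and the sources used here do not say why. Counts of genes called moved to 530 and 523 for the M1 comparisons in vehicle and under ISRIB with a minimum mean of 50 counts, which leaves fewer genes by construction (836). For ISRIB in M0 they moved from 0 to 3 with the DESeq2 Wald test and to 10 without a filter on low counts, and for the difference of ISRIB effects to 9 without that filter; the cause was not tested. Leaving out 1 sample at a time gave 0 to 4 genes for ISRIB in M0, 0 to 1 for ISRIB in M1 and 0 to 4 for the difference. Without replicate 1 of ISRIB M0 there were 4 genes for ISRIB in M0 and 4 for the difference, and without replicate 2 of ISRIB M0 there were 2 and 1. Without replicate 2 of ISRIB M1 there was 1 for ISRIB in M1. The sign of small ISRIB effects on Mtf1 changed when single samples were left out, from -0.092 to 0.16 in M0, -0.18 to 0.041 in M1 and -0.22 to 0.047 for the difference. That of Slc39a5 ran from -1.03 to 0.41 for polarization in vehicle cells and from -0.86 to 0.067 for ISRIB in M1. Slc11a1 under ISRIB passed in 6 of 18 alternatives and Slc40a1 in 2 of 18. The counts of Slc30a1, Mt1, Mt2 and most zinc transporters are too low to resolve a change, and why they are low was not tested.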

Other observations

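A zinc importer outside the tested genes was chosen after its values were seen. Slc39a1 (ZIP1), a zinc importer of the plasma membrane, had 1, 3 and 3 counts in vehicle M0 and 2, 2 and 1 in ISRIB M0. The M1 counts were 10, 6 and 6 with vehicle and 8, 10 and 6 with ISRIB. Every M1 library was thus above every M0 library, at 1 to 10 counts in all. By CPM, all M1 samples were above all M0 samples for 27.7% of tested genes in vehicle cells and 28.8% under ISRIB. No such share was computed for symbols below the filter on low counts. Slc39a1 was below that filter and has no test in the main fit. Slc39a1 has no counted opposite-strand neighbour in the annotation used. Slc39a6 (ZIP6) had its counts in single libraries, with 9 in replicate 2 of vehicle M0, 7 in replicate 3 of vehicle M1 and at most 2 in the others.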
